A study of Mus musculus with 12 samples.

Results

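The genes described here are the Wnt ligands other than Wnt7a and Wnt7b, the frizzled receptors other than Fzd4, the alternative Wnt receptors Ror1, Ror2 and Ryk, the secretion factors Porcn and Wls, and the secreted Wnt inhibitors of the Dickkopf, Sfrp and Wif1 kinds. They were chosen by gene symbol from tables of 23983 entries per tissue, and 42 genes met the rule in both tables. RNA was sequenced from the cortex and the subcortex of mice at postnatal day 0, in 12 libraries that form 4 groups of 3. The knockout animals (vKO) are labelled as a Reck vascular knockout of the genotype Reck flex2/Δex1 with Tie2Cre, on a mixed strain. Tie2Cre is a Cre driver of endothelial and blood lineages, so recombination is not limited to vessels, and the labels do not tie the Δex1 allele to Cre. The animals set against them are labelled wild type (WT), of the same mixed strain and age, and the labels name no allele or Cre in them. Whole dissected tissue was used, so fewer cells of a type and less RNA per cell cannot be told apart in any value.

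Wnt proteins are lipid-modified by Porcn and carried to the cell surface by Wls, and they then bind frizzled receptors on nearby cells. With an Lrp co-receptor the signal stabilises beta-catenin, while Ror and Ryk receptors take part in branches that do not need beta-catenin. Dickkopf proteins act mainly on the Lrp co-receptors, and Sfrp proteins, Frzb and Wif1 bind Wnt proteins outside the cell. In brain vessels Reck and Gpr124 let endothelial cells respond to Wnt7a and Wnt7b through a frizzled, which drives vessel growth into the brain and barrier formation. The other ligands serve elsewhere in the developing brain, for example Wnt3a and Wnt2b at the cortical hem and Wnt5a in axon growth.

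The deposited tables give 1 FPKM per gene and group (fragments scaled by transcript length and library size), which the authors computed from the 3 libraries of the group. The spread between replicates is therefore not shown, and the files do not give the libraries' depth, which stays unknown. The words rose and fell are kept for genes whose q-value in the authors' deposited table of that tissue was under 0.05, which are named called genes here. Log2 ratios divide vKO by WT after 1 FPKM was added to each, a scale on which changes of weakly expressed genes look smaller. Labels were checked against tissue markers. Emx1, a cortical transcription factor, stood at 15.3 FPKM in vKO and 13.3 in WT cortex, and at 0.113 in vKO and 0.106 in WT subcortex. Tcf7l2, which marks thalamus, stood at 33.2 FPKM in vKO and 37.0 in WT subcortex, and at 1.07 in vKO and 4.71 in WT cortex. Reck itself had 3.23 FPKM in vKO and 2.91 in WT cortex, and 3.49 in vKO and 2.37 in WT subcortex. Values over the whole gene in whole tissue do not check a deletion in vessels.

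Promoter sequences are shown for 3 of the genes. Fzd1 and Fzd7 are receptors present in both tissues, and Wnt3 is the ligand with the widest difference between tissues among those the authors tested. Each stretch holds up to 250 bases before the start site given by RefSeq on GRCm38.p6 (the assembly that mm10 denotes), read 5′ to 3′ on the gene's strand. The stretch of Wnt3 stops 25 bases short of its start site, where GENCODE M21 already places an exon. Capitals mark matches to the core words of TCF and LEF factors, the DNA-binding partners of beta-catenin. The words searched were CTTTGA and CTTTGT on both strands, which read TCAAAG and ACAAAG on the other strand.
Fzd1, chr5:4758217-4758466, minus strand: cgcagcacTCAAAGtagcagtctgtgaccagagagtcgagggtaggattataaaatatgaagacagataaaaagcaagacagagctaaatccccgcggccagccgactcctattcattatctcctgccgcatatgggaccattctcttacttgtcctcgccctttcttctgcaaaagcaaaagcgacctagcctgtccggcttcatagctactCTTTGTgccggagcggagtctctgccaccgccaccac
Fzd7, chr1:59481897-59482146, plus strand: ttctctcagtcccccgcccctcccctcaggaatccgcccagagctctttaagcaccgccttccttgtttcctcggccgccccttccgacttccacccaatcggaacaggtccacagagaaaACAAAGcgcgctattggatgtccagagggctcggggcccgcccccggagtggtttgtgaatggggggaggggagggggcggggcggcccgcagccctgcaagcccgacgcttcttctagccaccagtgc
Wnt3, chr11:103773925-103774149, plus strand: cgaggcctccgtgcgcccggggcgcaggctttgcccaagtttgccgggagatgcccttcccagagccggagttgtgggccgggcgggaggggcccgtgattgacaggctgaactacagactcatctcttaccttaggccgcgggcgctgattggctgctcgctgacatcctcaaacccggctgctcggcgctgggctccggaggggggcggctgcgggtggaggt
The Fzd1 stretch held 2 matches, that of Fzd7 held 1 and that of Wnt3 held 0. The other frizzleds with a window, Fzd5, Fzd9 and Fzd10, are not printed and held 0 each, and Fzd9 too is present in both tissues. RefSeq windows were matched for 30 of the 42 genes, as 33 windows, and those not matched were Dkk3, Dkk4, Fzd2, Fzd3, Fzd6, Fzd8, Porcn, Sfrp1, Sfrp4, Wnt5a, Wnt8a and Wnt10a. The counts take each window whole, also where GENCODE M21 places an exon in it, as for Wnt2b, Fzd10 and Dkk1, which are not printed for that reason. Of these, 10 windows held a match, or 30.3%, against 27.6% of all 32851 windows of the same 250 bases. The windows of the Wnt genes had a median GC content of 65.2%, against 52.4% over all windows. They held a median of 20 CpG dinucleotides, against 6 over all windows. These matches describe letters in a window, and no binding was measured.

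In vKO against WT cortex, a comparison of the cortical RNA of knockout and control mice, 2 of the 42 genes changed. The ligand Wnt2b and the receptor Fzd6 fell in vKO cortex, and no gene of the set rose. The authors' test covered 21 of the 42 genes, and the other 21 stood under 1 FPKM in both groups of cortex. Called in the authors' deposited table were 2 of the 21, or 9.52%, while 19.5% of all 13594 tested entries were called in cortex. For calls lower in vKO the share over all tested entries was 11.3%, and for calls higher it was 8.15%. The median log2 ratio of the 21 genes was -0.03, against 0.00 over all tested entries, and single ratios ran from -0.51 to 0.29. At an unadjusted p-value under 0.05 in the authors' deposited table there were 4 genes, all lower in vKO, namely Wnt2b, Fzd6, Fzd3 and Wnt5a. They are 19% of the 21, against 32.1% of all tested entries, of which 15.1% were higher and 17.1% lower in vKO.

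None of the 42 genes was called in subcortex by the authors' deposited table, where 0.714% of all 13735 tested entries were, 0.451% as higher and 0.262% as lower in vKO. The authors' test covered 26 of the 42 there, with log2 ratios from -0.14 to 0.41 and a median of 0.10, against 0.00 over all tested entries. At an unadjusted p-value under 0.05 there were 3 genes, all higher in vKO (Dkk3, Fzd5 and Fzd6), or 11.5% of the 26, against 6.31% of all tested entries, with 3.49% higher and 2.82% lower. No second test could be run on 1 value per group. Both tissues had a test for 20 of the genes, 1 in cortex alone, 6 in subcortex alone and 15 in neither.

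**Figure D1:**
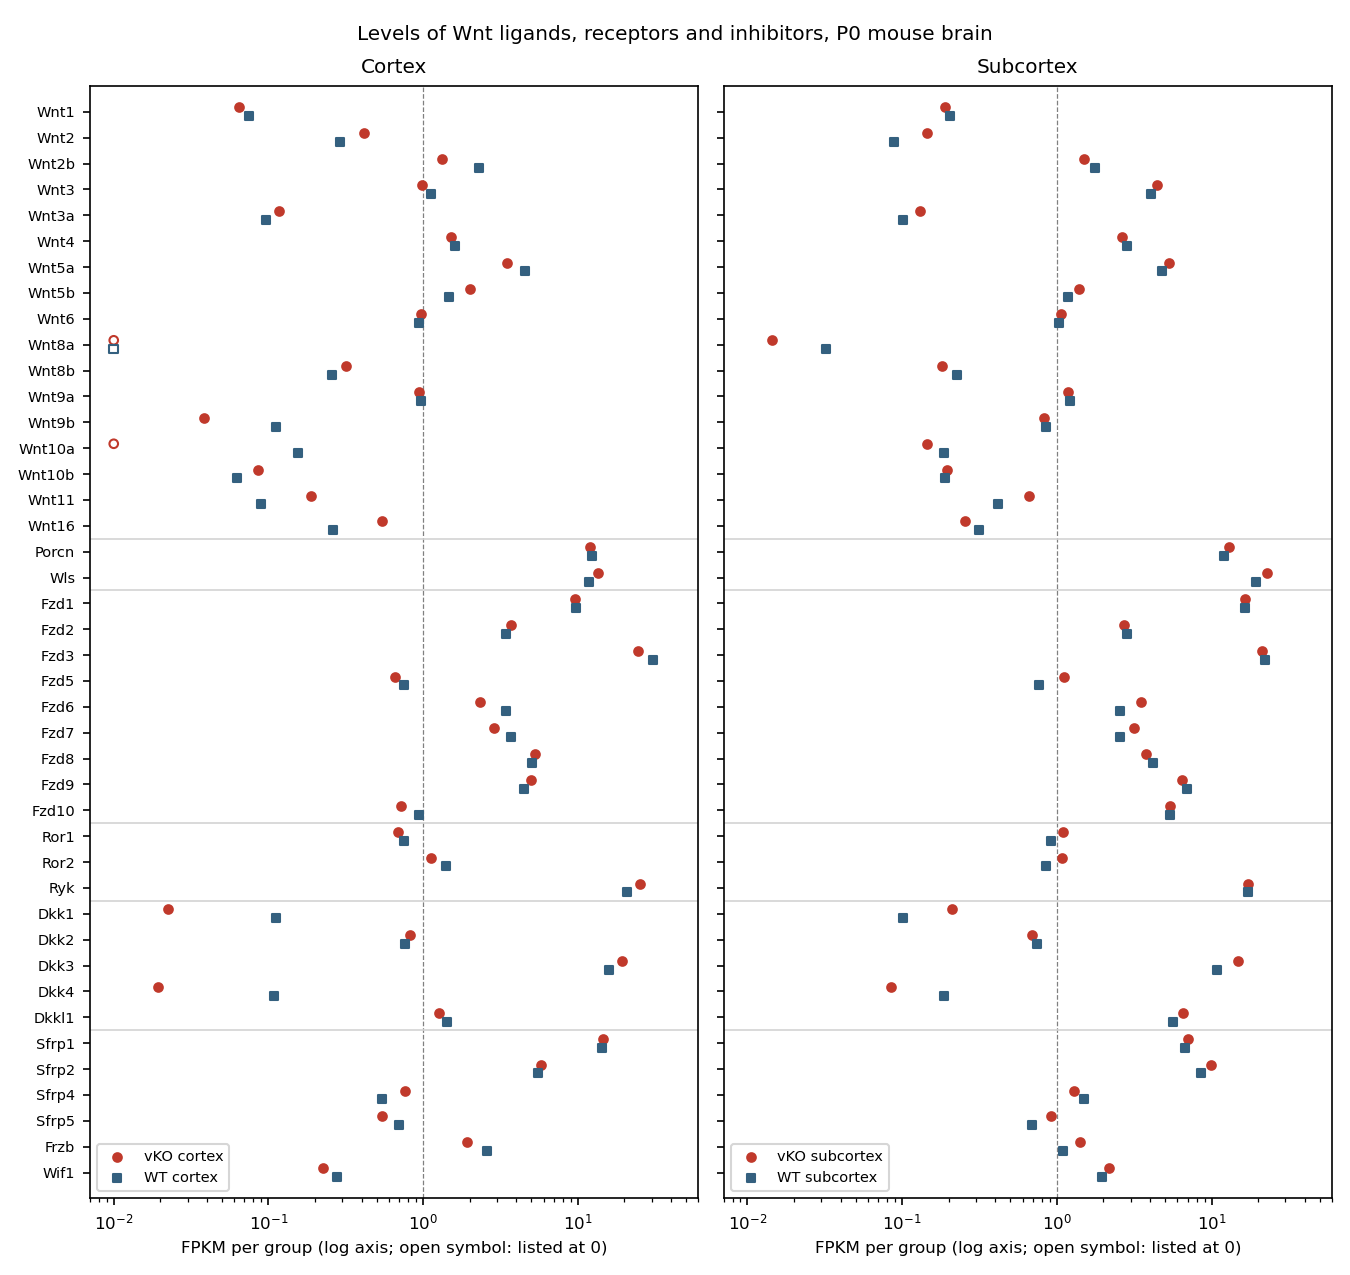
FPKM of each of the 42 genes (log axis) in cortex and subcortex, with vKO as red circles and WT as blue squares, 1 value per group of 3 libraries and no error bars. Open symbols mark genes listed at 0, and the dashed line stands at 1 FPKM. The levels span from under 0.1 FPKM for ligands such as Wnt1 to 30.8 FPKM for Fzd3 in WT cortex, and Wnt2b and Fzd6 are lower in vKO cortex.

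Among the 17 ligands Wnt5a had the highest level averaged over the 4 groups, and 1 ligand changed. Wnt2b lies on chromosome 3 from 104945272 to 104961921 on the minus strand, with 5 exons in its main transcript (GENCODE M21). It stood at 1.32 FPKM in vKO and 2.31 in WT cortex, and at 1.49 in vKO and 1.76 in WT subcortex. In cortex it fell, with a log2 ratio of -0.51 and q = 0.00765 in the authors' deposited table. Without a pseudocount its FPKM fell by 42.7% in vKO cortex. In subcortex its log2 ratio was -0.14, and its q-value in the authors' deposited table was 0.999. The vKO value was thus the lower of the pair in both tissues, with a call in cortex.

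Wnt2b is known from the cortical hem, and markers of that and of neighbouring tissues were read beside it. The 5 markers of hem and roof plate summed to 7.96 FPKM in vKO and 7.38 in WT cortex, and of 2 tested the authors' deposited table called neither. Those 2, Rspo3 and Msx1, made up most of the sum in both genotypes. Their vKO values were the higher ones, as were those of Msx2 and Dmrt3. Lmx1a went the other way, at 0.352 FPKM in vKO and 0.528 in WT cortex. Like Msx2 and Dmrt3 it stood under 1 FPKM there and was not tested by the authors. The 6 choroid plexus markers summed to 499 FPKM in vKO and 519 in WT cortex, nearly all of it the transport protein gene Ttr, with none of 5 tested called. The 6 meningeal fibroblast markers summed to 60.4 FPKM in vKO and 50.4 in WT cortex, with 2 risen and 1 fallen by the authors' deposited table. The 7 markers of thalamus and other subcortical regions summed to 10.1 FPKM in vKO and 16.5 in WT cortex, and of 4 tested 2 fell by the authors' deposited table, Tcf7l2 and Lhx9. That sum includes Sp8, which was higher in cortex (4.89 FPKM in vKO, 5.36 in WT) than in subcortex (0.938 in vKO, 1.02 in WT). No marker of these 4 lists was listed at 0 in cortex. The part of any of these tissues in the Wnt2b value was not tested.

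Wnt5a, a ligand that signals largely without beta-catenin, stood at 3.50 FPKM in vKO and 4.54 in WT cortex, and at 5.31 in vKO and 4.77 in WT subcortex. Its q-values in the authors' deposited table were 0.145 in cortex and 0.999 in subcortex, so it was not called in either. Wnt3, which acts through beta-catenin, stood at 0.987 FPKM in vKO and 1.13 in WT cortex, with q = 0.687 in the authors' deposited table. Subcortical Wnt3 stood at 4.45 FPKM in vKO and 4.08 in WT, with q = 0.999 in the authors' deposited table. Neither Wnt3 nor Wnt5a differed between the genotypes as widely as Wnt3 did between the tissues.

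The other tested ligands were low in all groups and none was called. Wnt4 stood at 1.51 FPKM in vKO and 1.61 in WT cortex, and at 2.65 in vKO and 2.84 in WT subcortex. Wnt5b had the highest log2 ratio of the set in cortex, 0.29, from 2.01 FPKM in vKO and 1.46 in WT, yet q = 0.663 in the authors' deposited table. In subcortex Wnt5b stood at 1.38 FPKM in vKO and 1.18 in WT. Wnt9a, tested in subcortex alone, had 1.18 FPKM there in vKO and 1.22 in WT. The remaining 11 ligands (Wnt1, Wnt2, Wnt3a, Wnt6, Wnt8a, Wnt8b, Wnt9b, Wnt10a, Wnt10b, Wnt11 and Wnt16) were not tested in either tissue, and their values were at most 1.06 FPKM. Of these, Wnt6 came nearest to the tested ones, at 0.974 FPKM in vKO and 0.939 in WT cortex and 1.06 in vKO and 1.04 in WT subcortex. Wnt8a was listed at 0 in both groups of cortex, and Wnt10a was listed at 0 in vKO cortex and at 0.155 in WT cortex.

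Summed over the 17 ligands, FPKM came to 13.0 in vKO and 14.4 in WT cortex, and to 20.3 in vKO and 19.5 in WT subcortex. Wnt7a and Wnt7b, the ligands of the Reck and Gpr124 complex, together had 34.7 FPKM in vKO and 30.9 in WT cortex. In subcortex that pair had 13.3 FPKM in vKO and 11.3 in WT. The pair made up 72.7% of all Wnt ligand FPKM in vKO and 68.3% in WT cortex, against 39.6% in vKO and 36.8% in WT subcortex. The cortex therefore held mostly Wnt7 transcripts in both genotypes, while the other ligands together outweighed them in subcortex.

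**Figure D2:**
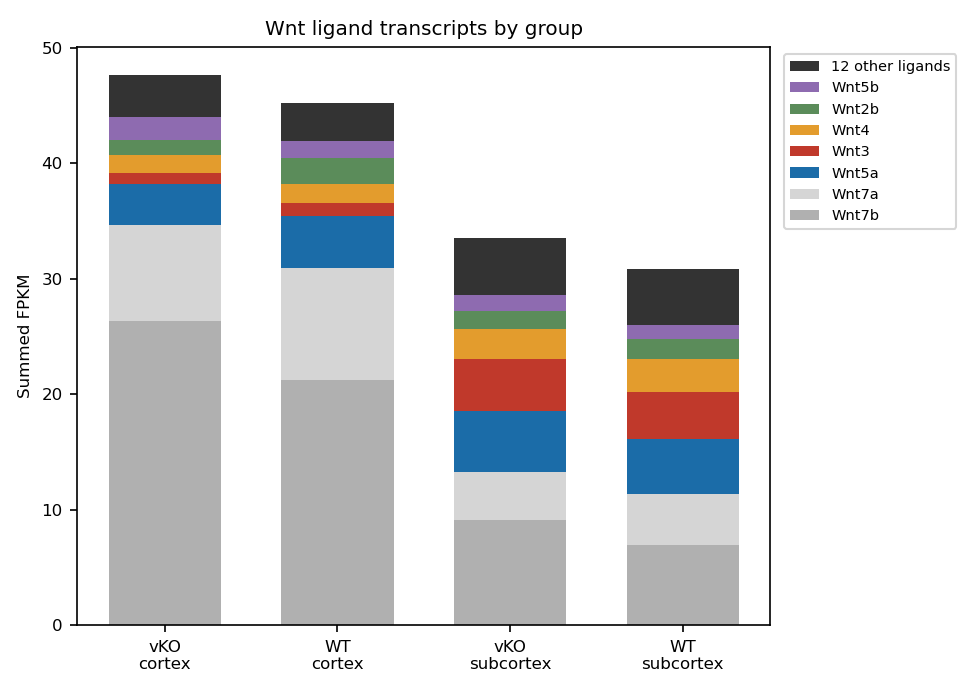
Summed FPKM of all Wnt ligands in the 4 groups, 1 value per group and no error bars. Each segment is the authors' value of 1 ligand, except 1 segment that sums the remaining ligands. Wnt7b and Wnt7a (grey) fill 72.7% of the bar in vKO and 68.3% in WT cortex, and Wnt3 (red) is wider in both subcortex bars than in both cortex bars.

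The secretion factors were abundant and neither was called. Porcn, the acyltransferase that attaches the lipid to Wnt proteins, stood at 12.1 FPKM in vKO and 12.3 in WT cortex, and at 13.0 in vKO and 12.0 in WT subcortex. Its q-values in the authors' deposited table were 0.940 and 0.999. Porcn lies on chromosome X, and markers of sex differed between the groups. Xist, made from the inactive X of female cells, had 18.6 FPKM in vKO and 0.0417 in WT cortex, and 10.2 in vKO and 0.0369 in WT subcortex. Eif2s3y, a gene of the Y chromosome, had 15.8 FPKM in vKO and 30.4 in WT cortex, and 13.3 in vKO and 27.6 in WT subcortex. The part of sex in the values of Porcn or of any other gene of the set was not tested. Wls, the carrier of Wnt proteins, stood at 13.5 FPKM in vKO and 11.7 in WT cortex, with q = 0.399 in the authors' deposited table. In subcortex Wls had 22.7 FPKM in vKO and 19.5 in WT, with q = 0.999 in the authors' deposited table.

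Of the 9 frizzleds, the Wnt receptors with a cysteine-rich binding domain and 7 membrane passes, 7 were tested in cortex and 1 fell. Fzd6 lies on chromosome 15 from 39006034 to 39038188 on the plus strand, with 7 exons in its main transcript. It stood at 2.34 FPKM in vKO and 3.44 in WT cortex, and it fell there, with a log2 ratio of -0.41 and q = 0.0350 in the authors' deposited table. Without a pseudocount the FPKM fell by 31.8% in vKO cortex. In subcortex Fzd6 stood at 3.47 FPKM in vKO and 2.57 in WT, a log2 ratio of 0.33 with q = 0.700 in the authors' deposited table. The vKO value was thus the lower of the pair in cortex and the higher in subcortex. The difference between the tissues could not be tested on 1 value per group. An antisense gene shares 152 bases, or 3.51%, of the main Fzd6 transcript, and the sources used here do not say whether the counting used the strand.

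Fzd6 is among the frizzleds of brain endothelium, and endothelial markers moved both ways beside it. The 7 endothelial markers summed to 61.0 FPKM in vKO and 79.9 in WT cortex, and by the authors' deposited table Cldn5 and Kdr fell while Emcn and Plvap rose. Cldn5 alone stood at 24.6 FPKM in vKO and 46.8 in WT cortex, a wider gap than that of the sum. In subcortex the 7 markers summed to 73.3 FPKM in vKO and 65.8 in WT, and Cdh5 and Pecam1 rose by the authors' deposited table. The 5 microglial markers summed to 63.3 FPKM in vKO and 25.4 in WT cortex, with 4 risen by the authors' deposited table. In subcortex those microglial markers summed to 47.2 FPKM in vKO and 43.3 in WT, with none called. No endothelial or microglial marker of the lists was at 0. The part of endothelial or microglial content in the values of Fzd6 was not tested. Fzd4, the frizzled of the Reck complex, stood at 1.89 FPKM in vKO and 1.91 in WT cortex, and at 1.96 in vKO and 1.22 in WT subcortex, and was not called in either.

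Fzd3, a receptor of axon guidance, was the most abundant frizzled and made up 44.9% of the frizzled sum in vKO and 49.4% in WT cortex. It stood at 24.6 FPKM in vKO and 30.8 in WT cortex, with a p-value of 0.0385 and q = 0.130 in the authors' deposited table. In subcortex Fzd3 had 21.2 FPKM in vKO and 22.2 in WT, with q = 0.999 in the authors' deposited table. Fzd1, the next in level, had 9.63 FPKM in vKO and 9.76 in WT cortex, and 16.5 in both vKO and WT subcortex. Its q-values in the authors' deposited table were 0.953 in cortex and 0.999 in subcortex. The order of the most abundant frizzleds, Fzd3 before Fzd1, was the same in all 4 groups.

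The remaining frizzleds were lower and not called. In cortex the tested ones among them, Fzd2, Fzd7, Fzd8 and Fzd9, lay between 2.89 and 5.25 FPKM in vKO and between 3.46 and 5.03 in WT. In subcortex these 4 lay between 2.72 and 6.47 FPKM in vKO and between 2.56 and 6.94 in WT. Fzd5, a frizzled with a role in eye and yolk sac vessels in mice, had 0.655 FPKM in vKO and 0.751 in WT cortex, where it was not tested. In subcortex it had 1.11 FPKM in vKO and 0.765 in WT, with a p-value of 0.0241 and q = 0.607 in the authors' deposited table. An antisense gene shares 17.8% of the main Fzd5 transcript. Fzd10 had 0.715 FPKM in vKO and 0.943 in WT cortex, and 5.40 in vKO and 5.36 in WT subcortex. The 9 frizzleds summed to 54.8 FPKM in vKO and 62.4 in WT cortex, and to 63.8 in both vKO and WT subcortex.

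Ryk, an atypical receptor tyrosine kinase that binds Wnt proteins in axon guidance, was the most abundant of the Ror and Ryk group in all 4 groups of libraries, and none of its 3 genes was called. It stood at 25.1 FPKM in vKO and 20.6 in WT cortex, with q = 0.181 in the authors' deposited table. In subcortex Ryk stood at 17.2 FPKM in both vKO and WT, with q = 0.999 in the authors' deposited table. Ror2, a receptor for Wnt5a, had 1.13 FPKM in vKO and 1.40 in WT cortex, with q = 0.390 in the authors' deposited table. It had 1.08 FPKM in vKO and 0.856 in WT subcortex, where it was not tested. Its relative Ror1 had 0.685 FPKM in vKO and 0.750 in WT cortex, and 1.10 in vKO and 0.910 in WT subcortex. Ryk made up 93.3% of the sum of these receptors in vKO and 90.6% in WT cortex.

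Dkk3, a divergent Dickkopf protein whose action on Wnt signalling is less settled than that of Dkk1, held most of the Dickkopf transcripts in all 4 groups. It stood at 19.2 FPKM in vKO and 16.0 in WT cortex, with q = 0.221 in the authors' deposited table. In subcortex Dkk3 stood at 14.8 FPKM in vKO and 10.9 in WT, the highest log2 ratio of the set there at 0.41. Its p-value there was 0.0112 and its q-value 0.411 in the authors' deposited table, so it was not called. The vKO value was thus the higher of the pair in both tissues, without a call in either. Dkkl1, a Dickkopf-like gene known from the testis, had 1.27 FPKM in vKO and 1.43 in WT cortex, and 6.53 in vKO and 5.66 in WT subcortex. Its q-values in the authors' deposited table were 0.822 and 0.999. The Lrp6 inhibitors Dkk1 and Dkk4 had at most 0.210 FPKM in any group and Dkk2 at most 0.819, and none of the 3 was tested.

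Sfrp1 and Sfrp2, which encode secreted proteins with a frizzled-like domain, had the highest transcript levels among the Sfrp genes, Frzb and Wif1. No gene of that group was called. Sfrp1 stood at 14.6 FPKM in vKO and 14.3 in WT cortex, and at 6.99 in vKO and 6.69 in WT subcortex. Sfrp2 stood at 5.77 FPKM in vKO and 5.51 in WT cortex, and at 9.93 in vKO and 8.59 in WT subcortex. The q-values in the authors' deposited table were 0.918 for Sfrp1 and 0.865 for Sfrp2 in cortex, and 0.999 for each in subcortex. An antisense gene shares 17.3% of the main Sfrp2 transcript. Frzb, which belongs to the same family, had 1.93 FPKM in vKO and 2.59 in WT cortex, with q = 0.191 in the authors' deposited table. In subcortex Frzb had 1.41 FPKM in vKO and 1.10 in WT. Sfrp4 and Sfrp5 lay between 0.542 and 1.49 FPKM over the 4 groups. Wif1, an inhibitor that binds Wnt proteins directly, had 0.226 FPKM in vKO and 0.279 in WT cortex, and 2.18 in vKO and 1.95 in WT subcortex.

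**Figure D3:**
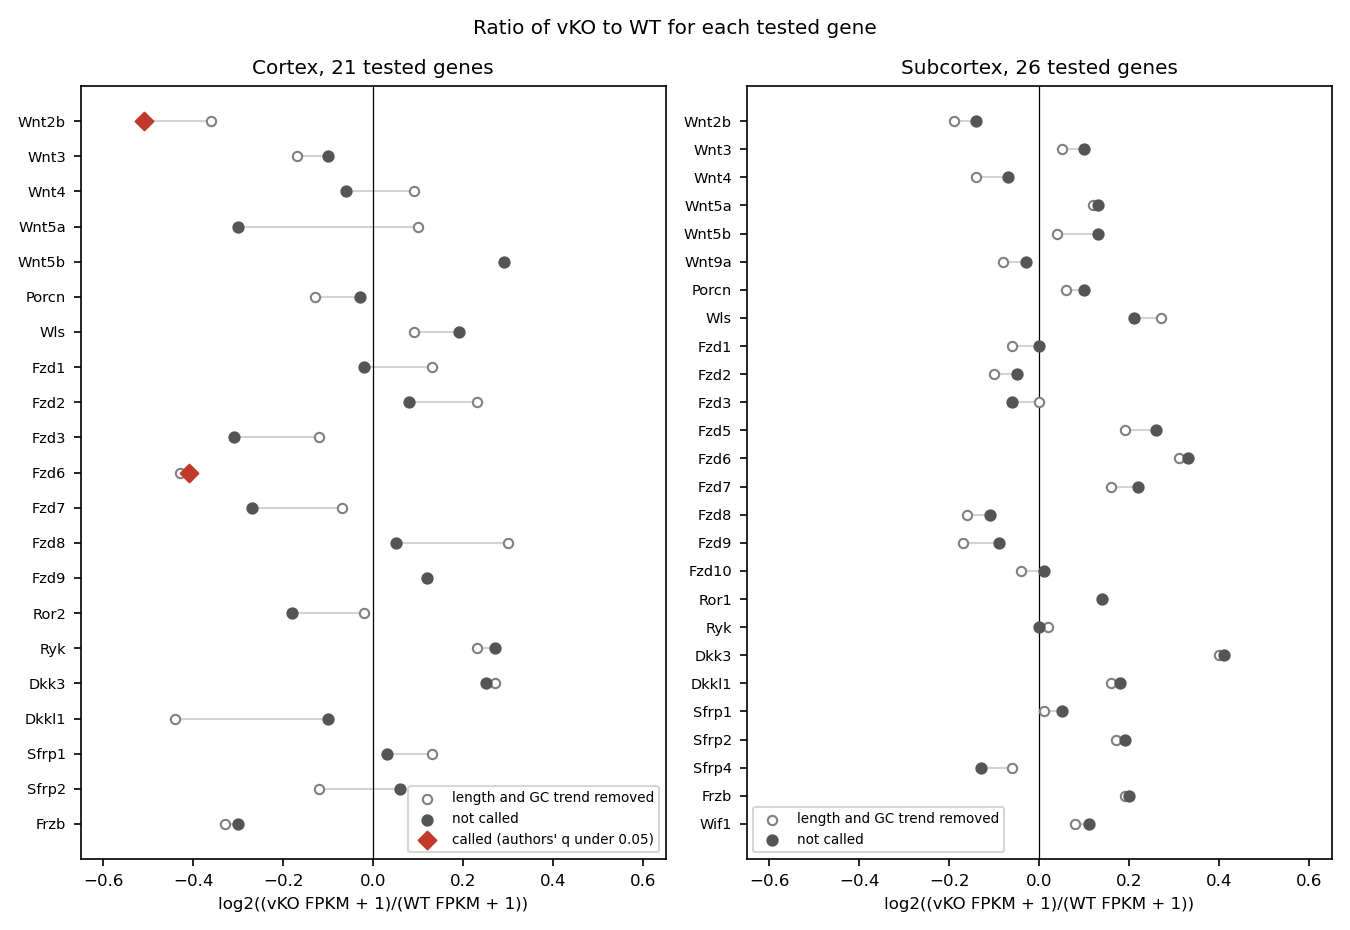
Log2 ratio of vKO to WT for each gene the authors tested, 21 in cortex and 26 in subcortex, 1 value per gene and no error bars. Red diamonds are genes with a q-value under 0.05 in the authors' deposited table, dark points are the other genes, and open circles give the ratio after the trend with transcript length and GC content was removed. Wnt2b at -0.51 and Fzd6 at -0.41 are the red points in cortex, and there are none in subcortex.

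Ratios in cortex fell with transcript length over all genes, so the values were also read after that trend was removed. Across 13446 entries with a length the Spearman correlation of the log2 ratio with transcript length was -0.551 in cortex, and it was 0.02 across 13594 entries in subcortex. Genes are not independent replicates, and these correlations carry no test. The median transcript length of the tested genes of the set was 3559 bases in cortex, against 3179 over all tested entries. With the trend removed, the log2 ratio was -0.36 for Wnt2b and -0.43 for Fzd6, so both remained below 0. The ratio of Fzd3, whose main transcript has 12734 bases, was -0.12 with the trend removed, against -0.31 with it. Wnt5a, whose main transcript has 7010 bases, changed sign, from -0.30 with the trend to 0.10 without it. The median of the 21 tested genes also changed sign, to 0.09. What makes ratios follow length in these cortex libraries was not tested.

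**Figure D4:**
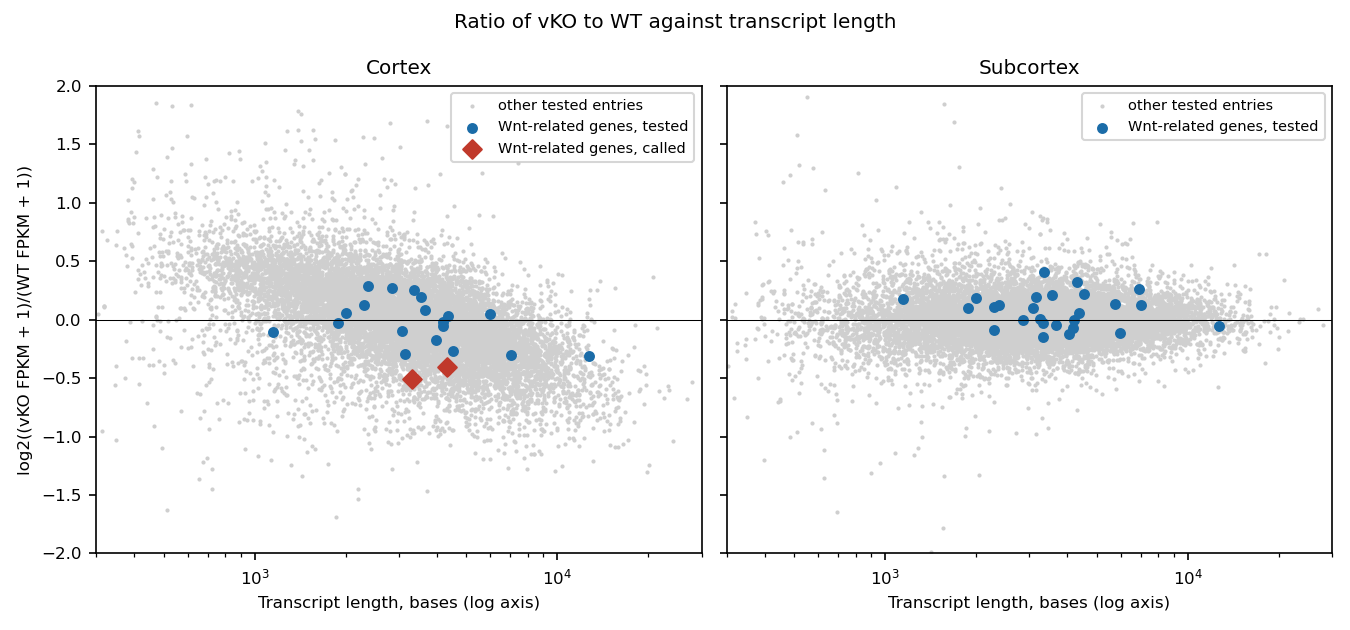
Log2 ratio of vKO to WT (y axis) against transcript length in bases (x axis, log scale) for all tested entries with a length (grey), the tested Wnt-related genes (blue) and those called in the authors' deposited table (red diamonds). In cortex the grey cloud slopes down (Spearman correlation -0.551) and Wnt2b and Fzd6 lie in its lower part at their length. In subcortex it is flat, and 180 cortex and 139 subcortex entries lie outside the axes.

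The 4 groups also show where each gene is expressed, though the tables of the tissues were normalised separately and no test between tissues was made. Of the 42 genes, 28 reached 1 FPKM in at least 1 group. At least 2-fold higher in subcortex than in cortex in both genotypes were 4 of them, namely Fzd10, Wif1, Dkkl1 and Wnt3, and 1, Sfrp1, was at least 2-fold higher in cortex. Fzd10 was 7.55-fold higher in subcortex than in cortex in vKO and 5.69-fold higher in WT. Wif1 was 9.63-fold higher in subcortex in vKO and 6.99-fold higher in WT. Wnt3 was 4.51-fold higher in vKO and 3.61-fold higher in WT. Sfrp1 was 2.09-fold higher in cortex than in subcortex in vKO and 2.14-fold higher in WT. Dkkl1 was 5.15-fold higher in subcortex in vKO and 3.95-fold higher in WT. The fold was thus wider in vKO than in WT for each of the 4 genes higher in subcortex, which was not tested. Fzd10 and Wif1 were under 1 FPKM in cortex, as was Wnt3 in vKO cortex (0.987), and FPKM is least precise there. The markers of thalamus and other subcortical regions summed to 10.1 FPKM in vKO and 16.5 in WT cortex. The part of such tissue in these folds was not tested.

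Across the 28 genes the tissue difference in vKO and that in WT had a Pearson correlation of 0.93 and a Spearman correlation of 0.85. This is a description over genes that share transcript length and annotation in all libraries, and it carries no test. Neither the correlations nor the counts by tissue, here and above, were set beside those of all entries. They therefore do not mark these genes off from others. For 24 of the 28 the higher tissue was the same in both genotypes. For the other 4, Wnt2b, Fzd6, Fzd7 and Porcn, subcortex was the higher one in vKO and cortex the higher one in WT. Fzd6 had the widest such shift, at 0.42 in vKO and -0.31 in WT on the log2 scale of subcortex over cortex. These 4 include the 2 genes that fell in cortex, whose vKO cortex values enter this comparison too.

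**Figure D5:**
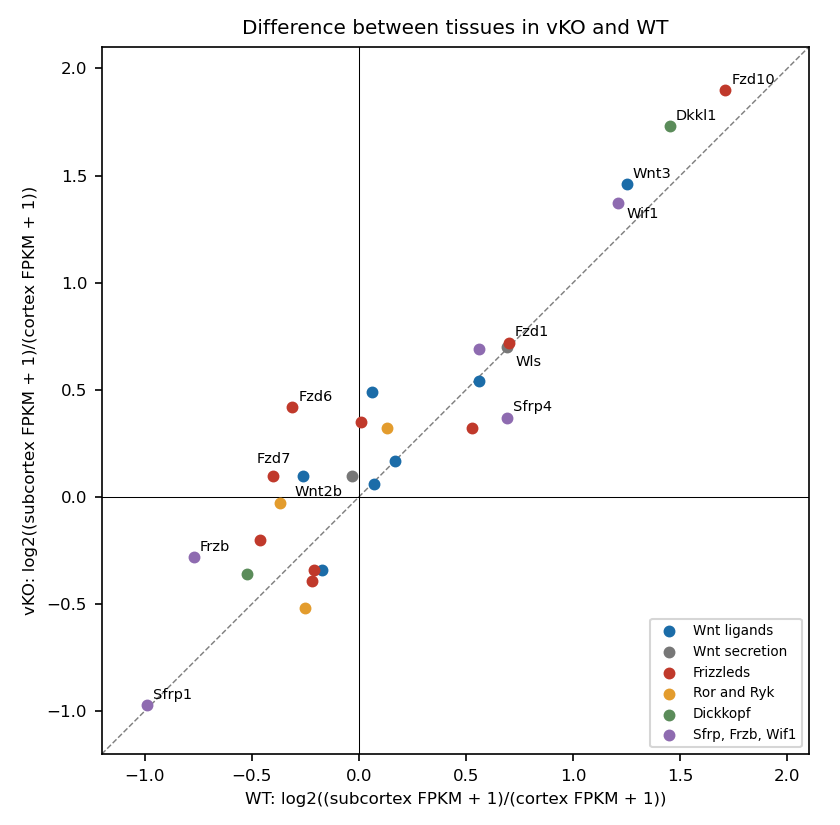
Difference between subcortex and cortex on the log2(FPKM + 1) scale for the 28 genes that reached 1 FPKM, in vKO (y axis) against WT (x axis), with 1 point per gene, colours by role and no error bars. Points on the dashed line have the same difference in both genotypes. Fzd10, Dkkl1, Wnt3 and Wif1 lie at the top right and Sfrp1 at the bottom left, while Fzd6, Fzd7 and Wnt2b lie left of 0 in WT and above 0 in vKO.

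The other genes of the pathway were read from a list of 68 symbols, of which 67 were found and 58 tested in each tissue. Of the 58, by the authors' deposited table, 20 fell in cortex and 0 rose, or 34.5%, against 19.5% of all tested entries called in either direction and 11.3% called lower. Their median log2 ratio was -0.20, against 0.00 over all tested entries, and -0.08 once the trend with length and GC content was removed. None of the 58 was called by the authors' deposited table in subcortex. At an unadjusted p-value under 0.05 there, 7 were higher in vKO (Reck, Fzd4, Wnt7b, Kremen1, Celsr1, Prickle1 and Gpc4) and 1 was lower. Together they were 13.8% of the 58, against 6.31% of all tested entries, with 3.49% higher and 2.82% lower. The median there was 0.02. The 1 lower gene was Notum, the Wnt deacylase, picked after its value was seen, at 0.202 FPKM in vKO and 1.32 in WT subcortex with q = 0.0843 in the authors' deposited table. Notum is also among the 20 that fell in cortex, at 0.425 FPKM in vKO and 1.30 in WT, with q = 0.00765 in the authors' deposited table.

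Several of the genes that fell in cortex act inside the responding cell. Dvl3, which relays the signal from frizzleds, fell to 8.05 FPKM in vKO cortex, against 15.0 in WT, a log2 ratio of -0.82. The beta-catenin partners Bcl9 and Bcl9l fell, with 5.27 and 5.01 FPKM in vKO cortex against 11.0 and 8.54 in WT. The corepressor Tle2 fell to 3.34 FPKM in vKO cortex, against 5.80 in WT. Tcf7l2, which is also in the list of thalamic markers, had the lowest log2 ratio at -1.47. All 5 had q-values of at most 0.00144 in the authors' deposited table. Once the trend was removed, the log2 ratio of Bcl9 was -0.60, against -0.94 with it, and that of Bcl9l was -0.33, against -0.67. For Dvl3, Tle2 and Tcf7l2 it was -0.71, -0.63 and -1.48 with the trend removed.

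At the cell surface, the co-receptor Lrp6 fell to 11.1 FPKM in vKO cortex, against 17.2 in WT. Celsr2 and Celsr3, large cadherins of planar cell polarity, fell to 9.35 and 13.1 FPKM in vKO cortex, against 20.6 and 25.1 in WT. The glypican Gpc6 fell to 2.68 FPKM in vKO cortex, against 4.79 in WT. The Wnt inhibitor Apcdd1 fell to 13.2 FPKM in vKO cortex, against 19.9 in WT, with q = 0.00202 in the authors' deposited table. With that trend removed the ratios of Lrp6 and Apcdd1 were each -0.18, those of Celsr2 and Celsr3 -0.51 and -0.34, and that of Gpc6 -0.64. Of the Reck complex, Gpr124 fell to 2.35 FPKM in vKO cortex, against 3.84 in WT, a log2 ratio of -0.53 that was -0.20 with the trend removed. Wnt7a, Wnt7b and Reck were not called in either tissue.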

How the data were processed

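Libraries were made from total RNA with a stranded kit, per the labels' protocols. The submitters' processing notes name mm10, HISAT2 2.0.1, Cufflinks 2.2.1 and Cuffdiff, and the order and settings of the steps and the annotation are not given in the sources used here. The FPKM values in the deposited tables are 1 per gene and group, per the file headers. In the group names W was taken to mean WT and M (mutant) to mean vKO, the 2 genotypes in the labels. The deposited p-values and q-values are the authors' own test. A Benjamini-Hochberg adjustment of the p-values over the tested entries gave the same q-values to within 5.2e-07. The deposited test statistic, a score per the file headers, was not used. FPKM alone gives no depth, no SD and no interval.

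From these values log2 ratios with a pseudocount of 1, class sums and shares were computed with Python 3.11.15 and pandas 2.3.3. For length and GC content the longest protein-coding transcript in GENCODE M21 was taken, or the longest transcript where none was protein-coding. To remove the trend, each ratio was centred on the median of the tested entries in its cell of a grid of 100 cells of length and GC content. The step was tried on simulated data with a trend in length, none in GC content, and changes larger than those of the set. That trial does not cover the GC part or changes as small as those here. Symbols that had been turned into dates numbered 27 in each of the tables, none of them a gene of the set. Genes given in full were those called in either tissue and the 2 of each role with the highest mean FPKM over the 4 groups. Pathway genes were named where called, up to 10 per tissue with the lowest q-value, beside Reck, Gpr124, Wnt7a, Wnt7b and Fzd4. Notum, Kremen1, Celsr1, Prickle1 and Gpc4 are outside this rule. The members, the gene lists and the tests were chosen with earlier results of these data known. The labels do not say whether replicates are separate animals, so the authors' p-values measure the spread between these libraries. Alternatives were stricter and looser q-values, a minimum fold of 1.5 in FPKM with no pseudocount, a minimum FPKM of 1, another pseudocount and centring.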

Additional observations from a re-analysis of the deposited data

How the results depend on the processing

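No paired analysis was possible because the files hold 1 value per group, and for the same reason no replicate could be left out. Of the 2 genes called in cortex, 1 (Wnt2b) passed a q-value under 0.01 and 1 (Wnt2b) differed at least 1.5-fold in FPKM with no pseudocount added. Both kept their sign once the trend with length and GC content was removed. A q-value under 0.1 added no gene. Every tested gene of the set reached 1 FPKM in at least 1 group of its tissue, so that minimum could remove none. The count in subcortex was 0 under each of these, and only the looser q-value could have raised it. The median log2 ratio in cortex (-0.03) was -0.02 over all members listed and 0.09 with the trend removed, and the other alternatives left it at -0.03. In subcortex the median (0.10) was 0.12 with a pseudocount of 0.1 or none, 0.03 over all members listed and 0.05 with the trend removed. The pathway count in cortex (20) was 16 at a q-value under 0.01, 24 under 0.1 and 20 by sign after the trend was removed. That last count keeps the original q-values and asks only for the same sign, so it does not show that the calls would hold. Within it the log2 ratio of Prickle2 went from -0.39 to 0.0 and that of Gsk3b from -0.53 to -0.13. Those of Btrc (-0.37 to -0.51) and Gpc4 (-0.52 to -0.67) moved the other way. In subcortex the pathway count (0) was 1 at a q-value under 0.1. Of 81 recomputed values for single genes, 75 kept their sign, a count that overstates how stable the signs are. Another pseudocount cannot change a sign, and centring on a median of 0.00 hardly moves a ratio. Trend removal, which could change it, did so for 6 of 27 values, none of a called gene. In cortex these were Wnt5a (0.10), Fzd1 (0.13) and Sfrp2 (-0.12), and in subcortex Fzd1 (-0.06), Fzd3 (0.00) and Ryk (0.02). The cause was not tested.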

Other observations

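Several ligands under 1 FPKM, none of them tested by the authors, differed in level between the tissues. Wnt9b stood at 0.823 FPKM in vKO subcortex and 0.0385 in vKO cortex, and at 0.856 in WT subcortex and 0.112 in WT cortex. Wnt11 stood at 0.656 FPKM in vKO subcortex and 0.189 in vKO cortex, and at 0.419 in WT subcortex and 0.0897 in WT cortex. An antisense gene shares 10.5% of the main Wnt11 transcript. Wnt2 was instead at 0.146 FPKM in vKO subcortex and 0.416 in vKO cortex, and at 0.0883 in WT subcortex and 0.289 in WT cortex. The same tissue was the higher one in both genotypes for each of these ligands. These 3 ligands were chosen for their values, and at such levels FPKM rests on few fragments.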
